A study of Homo sapiens with 6 samples.

Results

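The subject is a 10 Mb segment of the short arm of chromosome 6, from 40 to 50 Mb in hg38, as seen by ATAC-seq in SK-N-AS neuroblastoma cells. Its members are all peaks that lie wholly inside the segment in the 6 deposited peak lists. They number 3617 of the 1044250 peaks in all, and no peak crossed either end. The segment was chosen by the ranks of its peaks by p-value, selected on these same lists because the ranks were shifted in the indisulam-resistant cells R1 and not in R2, so every rank and pileup given here is a description of that choice and carries no test. SK-N-AS is a neuroblastoma line without MYCN amplification. Tumors of it were grown in mice that received vehicle or indisulam. Naïve cells were grown out of a vehicle-treated tumor, and R1 and R2 out of resistant tumors taken at the second relapse while the drug was being given. None of the cells was treated in culture. There were 2 libraries for each of naïve, R1 and R2, each made from 100000 cells, and the sources do not say whether the 2 libraries of a line were separate cultures. Each line stands for a tumor or a group of tumors, and the sources used here do not say which.

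ATAC-seq marks open chromatin with the Tn5 transposase, which cuts and tags DNA that is not wrapped tightly in nucleosomes. Active gene starts and enhancers give the highest peaks. The segment lies beyond the major histocompatibility complex on the way to the centromere. Its part nearer to the complex is dense in housekeeping and regulatory genes, among them CCND3, which encodes cyclin D3, VEGFA, the vascular growth factor, and SRF, serum response factor. Its part nearer to the centromere is poor in genes and holds germline and secreted protein genes such as the CRISP and defensin genes.

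The lists had 154926 and 115694 peaks for naïve cells, 340558 and 292030 for R1, and 67558 and 73484 for R2. The segment held 798 and 499 of these for naïve cells, 1070 and 801 for R1, and 210 and 239 for R2. Depth differed in the same order. Relative to the first R2 library, the background rates were 2.69 and 1.59 for naïve cells, 9.34 and 6.39 for R1, and 1.06 in the second R2 library. Start peaks were found for 6 to 8 of 8 adrenergic neuroblastoma genes in each library, for 6 to 9 of 9 mesenchymal genes, and for 0 to 3 of 6 genes of blood, endothelial, epithelial and liver cells. To lessen the effect of unequal depth, regions were compared only where all 6 lists had a peak. This keeps only regions called in R2, the shallowest lists, so the R2 ranks hold only for such regions. Of 353 segment regions with a peak in both naïve lists, 170 (48.2%) had none in R2, against 39.5% in the genome. Taken on the first R2 list, 36449 regions had a peak in all 6 lists, of which 116 lay in the segment. Wide peaks of the deeper lists can cover several of them, so that 99 to 116 different peaks of a list lay behind the 116 regions. In each library the compared regions were given a percentile rank by p, from 0 for the lowest to 100 for the highest. The pileup, which is the number of tags stacked at the summit, was recovered from the fold.

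The sequences below are shown because they carry the ends of the range within the segment. They are the 3 regions whose rank fell furthest from naïve to R1, 2 of the 3 whose rank rose furthest, and the start peaks of CCND3, VEGFA and CDC5L. Each is a stretch of at most 150 bases of the peak near its summit, outside annotated untranslated exons, on the plus strand of hg38. Capitals mark matches on either strand to a motif from a list of 10 short motifs.
FOXP4 intron, chr6:41581447-41581596: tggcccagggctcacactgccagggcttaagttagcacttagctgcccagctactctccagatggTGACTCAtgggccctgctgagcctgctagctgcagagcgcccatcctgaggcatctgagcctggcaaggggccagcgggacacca
Between SLC29A1 and HSP90AB1, chr6:44237544-44237693: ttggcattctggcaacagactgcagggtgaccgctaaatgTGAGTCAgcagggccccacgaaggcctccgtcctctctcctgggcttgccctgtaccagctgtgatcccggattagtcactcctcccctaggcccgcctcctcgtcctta
TTBK1 intron, chr6:43247201-43247350: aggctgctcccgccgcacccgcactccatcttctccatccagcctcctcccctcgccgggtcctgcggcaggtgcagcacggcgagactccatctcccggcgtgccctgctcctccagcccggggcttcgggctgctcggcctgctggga
ENPP4 start, chr6:46129839-46129988: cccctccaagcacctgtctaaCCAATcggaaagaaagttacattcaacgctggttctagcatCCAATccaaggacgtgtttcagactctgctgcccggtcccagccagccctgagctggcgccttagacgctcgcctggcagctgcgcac
USP49 start, chr6:41895376-41895522: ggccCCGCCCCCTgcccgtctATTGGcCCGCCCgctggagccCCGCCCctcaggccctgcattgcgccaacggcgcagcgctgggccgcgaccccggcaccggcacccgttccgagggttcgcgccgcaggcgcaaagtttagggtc
CCND3 start, chr6:41941819-41941968: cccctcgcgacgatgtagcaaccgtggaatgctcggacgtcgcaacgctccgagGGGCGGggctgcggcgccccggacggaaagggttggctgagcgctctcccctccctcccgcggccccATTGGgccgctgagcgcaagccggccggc
VEGFA start, chr6:43769942-43770091: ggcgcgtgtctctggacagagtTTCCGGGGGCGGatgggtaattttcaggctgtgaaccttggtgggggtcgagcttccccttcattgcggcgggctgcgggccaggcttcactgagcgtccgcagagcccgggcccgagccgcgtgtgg
CDC5L start, chr6:44387436-44387585: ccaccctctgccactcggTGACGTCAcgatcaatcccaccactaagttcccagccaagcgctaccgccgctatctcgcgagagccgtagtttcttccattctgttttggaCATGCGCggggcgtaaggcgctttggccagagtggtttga
The FOXP4 stretch and the one between SLC29A1 and HSP90AB1 hold an AP-1 motif, the site of the FOS and JUN factors. The ENPP4 stretch holds 2 CCAAT boxes, and the CDC5L stretch holds the CRE core on both strands together with part of an NRF1 motif.

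The median rank of the 116 regions was 47.3 and 46.6 for naïve cells, 14.6 and 14.3 for R1, and 51.0 and 51.3 for R2. The naïve and R2 medians therefore stood near the middle of the genome and both R1 medians far below it. The quartiles were 19.4 and 66.3 in the first naïve library and 2.42 and 25.9 in the first R1 library. In R1, 50 of the 116 regions ranked below the 10th percentile in each library, against 16 and 12 in naïve cells and 9 and 8 in R2. No region of the segment ranked above the 90th percentile in R1, against 3 and 5 in naïve cells and 8 and 4 in R2.

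**Figure D1:**
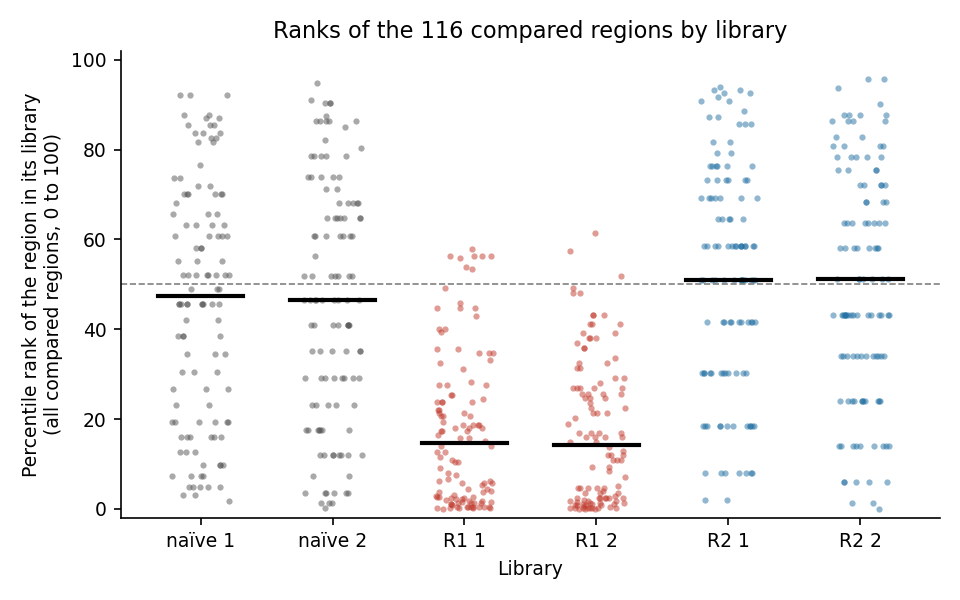
Percentile rank of each of the 116 compared regions (points) in each of the 6 libraries, with the median as a black bar and the genome's middle as a dashed line. The R1 medians are 14.6 and 14.3, and the other 4 lie between 46.6 and 51.3.

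The pileups showed the same order on a scale of tags. A compared region anywhere in the genome had a median of 28 and 19 tags for naïve cells, 127 and 84 for R1, and 12 and 13 for R2. In the segment the medians were 27.5 and 18 for naïve cells, 75 and 50.5 for R1, and 12 and 13 for R2. The segment thus had about the genome's pileup in naïve cells and R2, and less than it in both R1 libraries. On the log2 scale, relative to each library's own median over the genome, it stood at -0.03 and -0.08 for naïve cells, -0.76 and -0.73 for R1, and 0.00 for both R2 libraries. The median over regions of the R1 minus naïve difference in this relative pileup was -0.83, which is 0.562 of the naïve relative pileup. For R2 it was 0.16, or 1.12 of naïve. Over all 36449 regions the same medians were -0.05 for R1, or 0.963 of naïve, and 0.07 for R2, or 1.05 of naïve. Pileup depends on the number of DNA copies in the cells as well as on how open each copy is, and these cannot be told apart in peak lists.

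The shift of a region is its mean rank in R1 or R2 less its mean rank in naïve cells. The median shift was -30.1 percentile points in R1 (quartiles -42.6 and -14.2) and 5.18 in R2 (quartiles -6.71 and 15.8), against -1.29 and 0.79 over all 36449 regions. Where peaks had to share a fraction of 0.5 both ways, 24 regions of the segment were left, with a median of -12.6 for R1 and -2.38 for R2, and with the second naïve list as reference the R2 median was 0.445. Single pairs of libraries gave medians from -28.3 to -31.8 for R1 against naïve, from 2.62 to 7.05 for R2 against naïve, and 4.56 between the naïve libraries. In size the R1 medians were far larger than the one between the naïve libraries, and the R2 medians lay on either side of it. The segment was chosen on these shifts, so this comparison is a description only. The 2 libraries of a line differed for a single region by a median of 12.4 points for naïve cells, 3.51 for R1 and 12.7 for R2. Both R1 libraries ranked below both naïve libraries in 94 of the 116 regions, and in 34.5% of all regions. They ranked above both in 1, the ENPP4 start, and in 27.4% of all regions. For R2, 17 regions lay below both naïve libraries and 31 above, against 22.3% and 26.4% of all regions. Between the resistant lines, both R1 libraries ranked below both R2 libraries in 100 regions and above them in none, against 34.5% and 26.4% of all regions. In 85 regions both R1 libraries were below the other 4, a pattern held by 19.4% of all regions. No test was run, and 2 libraries against 2 cannot give an exact two-sided p below 0.333.

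Among the 246 bins of 10 Mb with at least 20 compared regions, the segment had the lowest median shift in R1, by rank and by log2 pileup. In R2 it was in place 106 from the bottom. The next lowest in R1 were the bins of the first 20 Mb of chromosome 19, at -28.0 and -26.0, which were also low in R2, at -25.4 and -15.9. The adjoining bin from 30 to 40 Mb had 263 regions with median shifts of 4.70 for R1 and 9.63 for R2, and the one from 50 to 60 Mb had 27 with -20.6 and 5.66. R1 had the deepest libraries, and the part of depth in the shift was not tested.

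**Figure D2:**
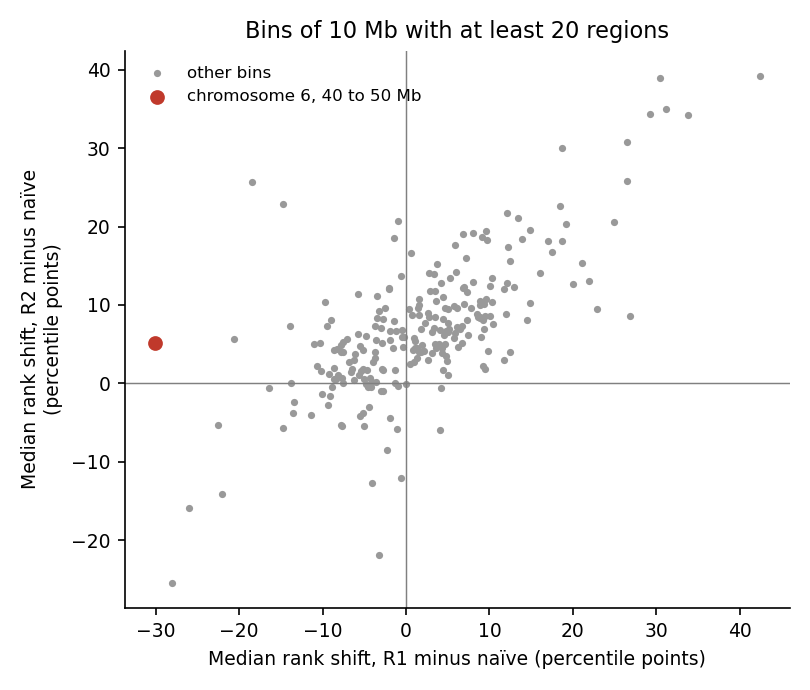
Median rank shift of 246 bins of 10 Mb, R1 minus naïve on the x axis and R2 minus naïve on the y axis, in percentile points. The segment (red) is at -30.1 and 5.18, at the far left of the plot and near the middle of its height.

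The low relative pileup in R1 began near 41 Mb. A denser set, with a peak in the 4 naïve and R1 lists, held 280 regions of the segment, and their median log2 shift was -0.86 (quartiles -1.09 and -0.55), against -0.08 over the 87192 regions of the genome. In the 10 windows of 1 Mb before the segment, the medians lay between -0.06 and 0.20. The window from 40 to 41 Mb held 3 regions, at -0.23, 0.77 and -0.36, too few to place where the fall began. The first region beyond it, at chr6:41028019-41028223, stood at -0.46 and those around the NFYA start between -0.91 and -0.64. From 41 to 45 Mb the 4 window medians were -0.90, -0.80, -0.89 and -0.87 over 265 regions. On this scale and in this set they differed little. From 45 to 50 Mb, where genes are few, 12 regions had window medians from -0.86 to -0.22. In the set with a peak in all 6 lists, the windows from 41 to 45 Mb held 108 of the 116 regions. Their median R1 shifts varied more, at -28.9, -36.8, -34.0 and -17.8 percentile points. On the log2 scale these were -0.75, -0.91, -0.90 and -0.93. Their R2 shifts were between 0.03 and 0.22 on the log2 scale.
At the ends of the segment, the nearest compared regions outside were at chr6:39934320-39934613 and chr6:52284551-52285087, with R1 shifts of 39.8 and -25.0 percentile points. The nearest inside were at chr6:40738066-40738316 and chr6:49463115-49463377, with shifts of -2.34 and -34.2. The end at 50 Mb therefore does not coincide with an end of the shift in R1, which ran on into the next bin.

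**Figure D3:**
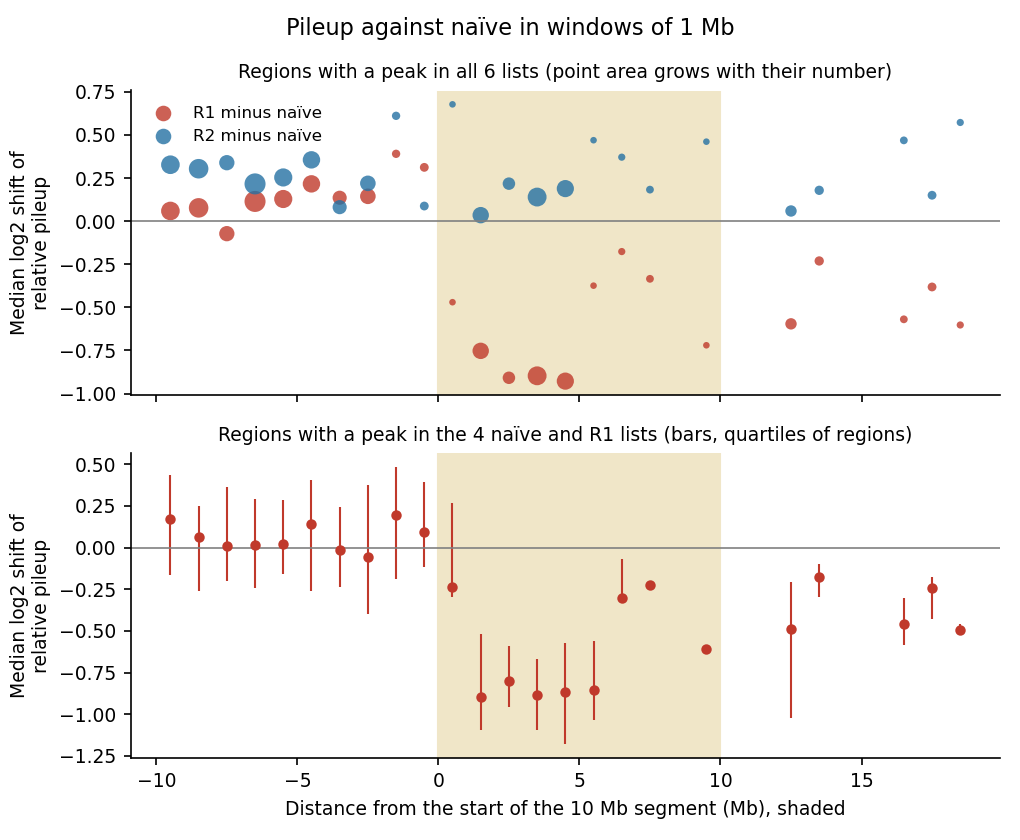
Median log2 shift of relative pileup against naïve in windows of 1 Mb, by distance from the start of the segment (shaded). Upper panel, R1 and R2 over regions with a peak in all 6 lists; lower panel, R1 over regions with a peak in the 4 naïve and R1 lists, with quartiles of regions as bars. In the lower panel the windows from 41 to 45 Mb lie between -0.90 and -0.80 and those before 40 Mb between -0.06 and 0.20; in the upper panel R2 stays between 0.03 and 0.22 from 41 to 45 Mb.

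The fall in R1 was found at gene starts and away from them. Of the 116 regions, 76 (65.5%) lay within 1000 bp of an annotated start, against 52.9% of all compared regions. Their median shift in R1 was -32.4 percentile points, or -0.73 on the log2 scale, and 60 (78.9%) lay below both naïve libraries. Over all regions at starts the median was 0.46 and 30.8% lay below. The 40 regions away from starts shifted by -16.3 points, or -0.97 on the log2 scale, and 34 of them lay below, against a median of -3.98 and 38.7% over all regions away from starts. The order of the sets is thus opposite on the 2 scales. Away from starts the naïve ranks were already low, with medians of 21.2 and 20.3. In R2 the medians were 4.49 at starts and 6.21 away. By position, 35 summits were in exons, 34 in introns and 47 outside genes, with R1 shifts of -29.9, -31.6 and -26.3. Their median GC content of 62.8% was close to the 62.9% of all compared regions.

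The 3 regions that fell furthest in R1 lay away from the canonical starts of protein-coding genes, though the one in TTBK1 is within 1000 bp of another annotated transcript start. The region in an intron of FOXP4, a forkhead repressor gene, had 34 and 29 tags for naïve cells, 47 and 38 for R1, and 10 and 11 for R2. Its rank was 65.7 and 82.2 for naïve cells, 2.2 and 4.58 for R1, and 30.3 and 34.0 for R2, a shift of -70.6 in R1 and -41.8 in R2. Here R2 also lay below both naïve libraries, between naïve and R1. The region between SLC29A1 and HSP90AB1 ranked at 85.5 and 73.9 for naïve cells, 17.9 and 11.0 for R1, and 41.5 and 68.2 for R2. The region in an intron of TTBK1, a tau kinase gene, ranked at 60.8 and 80.4, at 5.37 and 12.8, and at 51.0 and 34.0. In all 3, both R1 libraries were lowest and both R2 libraries stood below both naïve libraries. As the 3 were chosen for the largest fall from naïve to R1, R1 below naïve was set by the choice. The choice also favours high naïve ranks. Over the 116 regions, R2 lay below both naïve libraries in 17.

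The 3 regions with the highest R1 shift all ranked below the middle of the genome in naïve cells. The ENPP4 start, of a gene for a membrane-bound phosphodiesterase, had 18 and 13 tags for naïve cells, 93 and 55 for R1, and 12 and 12 for R2. It ranked at 12.8 and 17.5, at 27.6 and 19.0, and at 51.0 and 43.2. The USP49 start, of a deubiquitinase gene, had 19 and 16 tags for naïve cells, 100 and 61 for R1, and 19 and 9 for R2, and its rank shifted by 3.51 in R1. A region in an exon of TFEB, at chr6:41684787-41685011, shifted by 2.33. The last 2 overlapped naïve in rank.
The regions with the best mean rank over all libraries fell as well. The shared start of MEA1 and KLHDC3 ranked at 87.1 and 94.7 for naïve cells, 55.8 and 61.3 for R1, and 93.3 and 86.3 for R2. The shared start of NFYA and OARD1 ranked at 92.1 and 90.3, at 56.3 and 41.2, and at 88.6 and 95.7. A region in an intron of SRF ranked at 82.7 and 87.5, at 53.3 and 39.1, and at 93.3 and 87.8. In each of these R1 stood below naïve and R2. The latter overlapped each other at the shared starts, and R2 was slightly above naïve at the SRF intron.

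Genes were then taken one by one. The segment holds the canonical starts of 116 protein-coding genes in GENCODE release 44. Of these, 63 had a peak within 1000 bp of the start in all 6 lists, 30 in some lists and 23 in none. Many lie head to head, so the 63 genes rest on 51 different peaks of the first R2 list, and 22 of them share a peak. Ranks below are percentiles among the 10950 genes of the genome with a start peak in all lists, a scale of its own. The median shift of the 63 genes was -29.5 in R1 and 0.62 in R2, against -0.75 and 0.00 over all 10950. Both R1 libraries lay below both naïve libraries for 56 of the 63, against 32.1% of all genes compared. They lay above both for 1, LRFN2, against 28.8% of all. For R2, 11 genes lay below both naïve libraries and 9 above, against 21.0% and 20.9% of all. Both R1 libraries lay below both R2 libraries for 58 genes, against 28.3% of all, and below the other 4 for 53, against 16.7%. The 7 genes not below naïve in R1 were LRFN2, USP49, XPO5, POLH, TCTE1, ENPP4 and TNFRSF21.

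**Figure D4:**
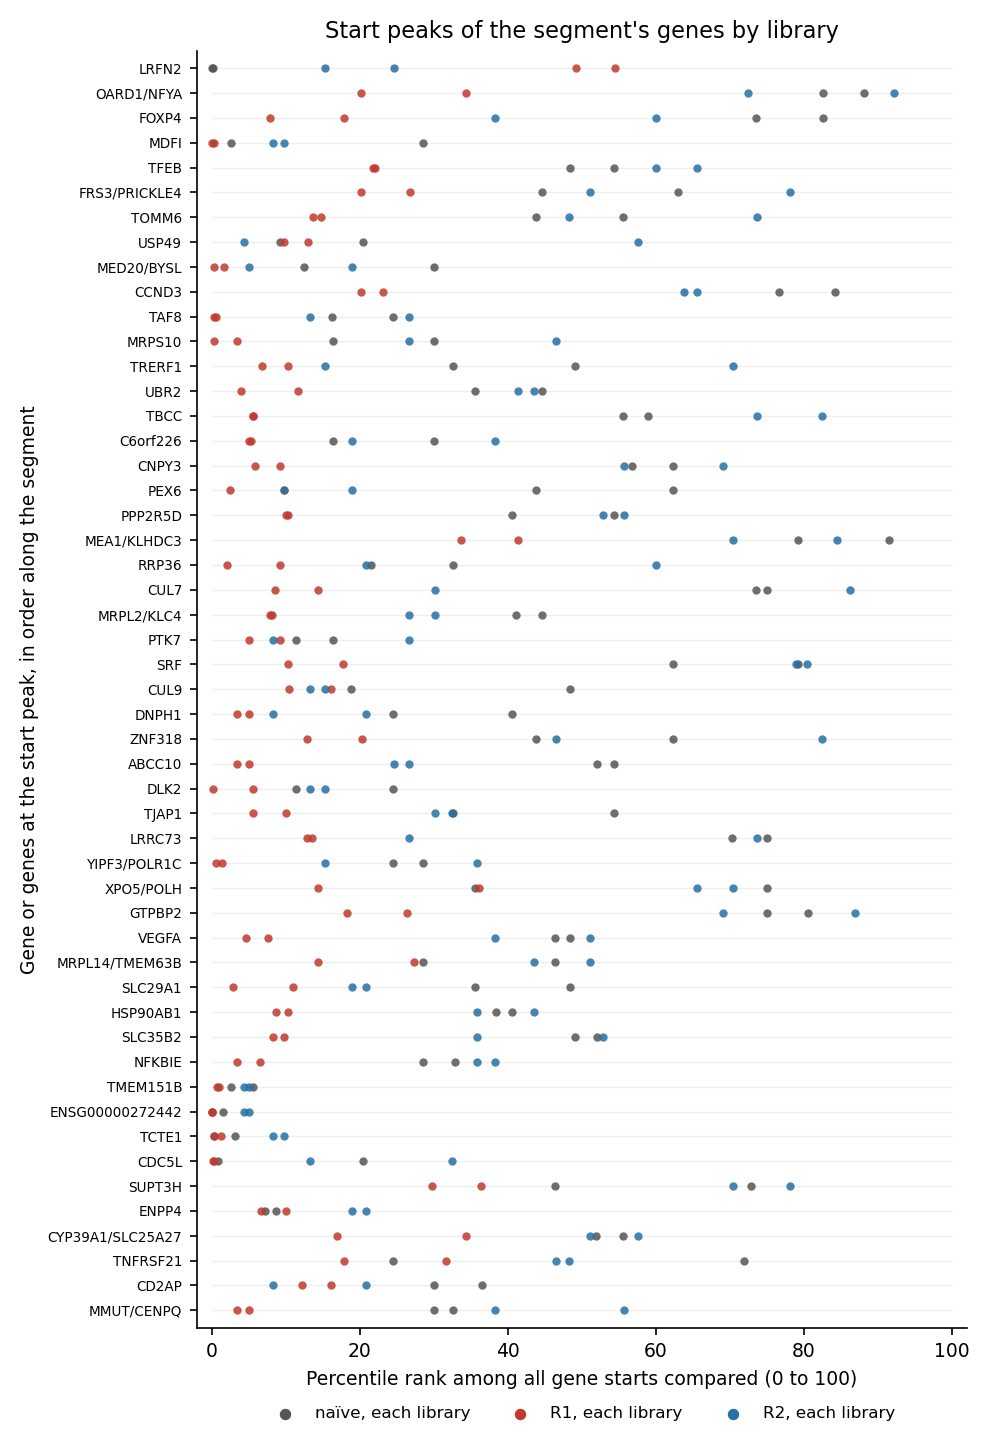
Percentile rank, among all gene starts compared, of each of the 51 start peaks of the segment in each library (points), in order along the segment from top to bottom. R1 points (red) lie to the left of both naïve points (grey) for 56 of the 63 genes; LRFN2, at the top, is the reverse.

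The counts of the gene lists that follow are to be read against the segment's own 56 of 63 genes below naïve in R1 and 11 of 63 in R2, and none of the lists was tested against the others. Transcription and chromatin genes were mostly lower in R1. Of 15 listed, 13 had a start peak in all lists, of which 12 were below naïve in R1 and 1 in R2, with medians of -29.5 and 1.96. NFYA (ENSG00000001167.15), the DNA-contacting subunit of the CCAAT-binding factor NF-Y, ranked at 88.1 and 82.7 for naïve cells, 34.4 and 20.2 for R1, and 72.4 and 92.3 for R2. SRF (ENSG00000112658.8), which drives growth-factor and cytoskeletal genes, ranked at 79.3 and 62.4, at 17.7 and 10.4, and at 80.4 and 78.9. For both, naïve and R2 overlapped and R1 stood apart. FOXP4 had the lowest shift of the list, -65.3 in R1 and -29.0 in R2, with ranks of 73.6 and 82.7 for naïve cells, 7.85 and 17.8 for R1, and 38.3 and 60.0 for R2. TFEB, the master regulator of lysosome genes, ranked at 54.4 and 48.4, at 22.1 and 21.8, and at 65.6 and 60.0. SUPT3H, a subunit of the SAGA coactivator, ranked at 46.4 and 72.9, at 36.3 and 29.8, and at 78.1 and 70.4. USP49 shifted by -3.38 and its R1 libraries overlapped naïve. RUNX2, the osteoblast factor whose first exons lie opposite SUPT3H, had no peak at its canonical start in any library. BICRAL had a start peak in some lists only.

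Cell cycle, DNA repair and ubiquitin ligase genes moved in the same direction in R1. Of 10 listed, 8 had a start peak in all lists, and 7 were below naïve in R1 and 2 in R2. CCND3 (ENSG00000112576.13), a partner of CDK4 and CDK6 in the passage out of G1, had 48 and 37 tags at its start for naïve cells, 120 and 75 for R1, and 21 in each R2 library. Its rank was 76.6 and 84.3 for naïve cells, 23.2 and 20.2 for R1, and 65.6 and 63.9 for R2, so that both resistant lines lay below naïve and R1 further. CUL7, a cullin scaffold of a ubiquitin ligase, ranked at 73.6 and 75.0 for naïve cells, 14.4 and 8.64 for R1, and 86.2 and 30.2 for R2, where the libraries lay on either side of naïve. Its neighbour in the family, CUL9, ranked at 18.8 and 48.4, at 10.5 and 16.1, and at 15.3 and 13.3, below naïve in both lines. KLHDC3, a substrate receptor of a cullin ligase, shares its start with MEA1 and shifted by -47.8 in R1 and -7.98 in R2. POLH, the translesion polymerase, and XPO5, the exporter of microRNA precursors, share 1 start peak. It ranked at 35.6 and 75.0 for naïve cells, 14.4 and 36.2 for R1, and 65.6 and 70.4 for R2, and the naïve and R1 ranks overlapped narrowly. CDC5L (ENSG00000096401.8), a core subunit of the PRP19 complex of the spliceosome, had a low start peak with 13 and 16 tags for naïve cells, 46 and 33 for R1, and 14 and 11 for R2. It ranked at 0.82 and 20.4, at 0.15 and 0.28, and at 32.5 and 13.3, so that both R1 libraries were near the bottom of the genome. TTBK1 and MAD2L1BP had start peaks in some lists.

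Genes of mitochondria and ribosomes were below naïve in R1 for all 8 of the 11 listed that had a start peak in all lists, and for 1 of the 8 in R2. Their shifts in R1 ran from -35.5 at TOMM6, a subunit of the outer membrane import pore, to -16.7 at MRPL14, a mitochondrial ribosomal protein. MMUT, the mitochondrial methylmalonyl-CoA mutase, shares its start with the kinetochore gene CENPQ and lies at the far end of the segment. It ranked at 30.1 and 32.7 for naïve cells, 5.12 and 3.48 for R1, and 38.3 and 55.7 for R2. R1 was thus also low at this end. SLC25A27, a mitochondrial carrier gene, shares its start with the oxysterol hydroxylase gene CYP39A1, which shifted by -28.1 in R1 and 0.62 in R2.

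Among signalling genes, 7 of 11 had a start peak in all lists, of which 6 were below naïve in R1 and none in R2. VEGFA (ENSG00000112715.26) had 33 and 23 tags for naïve cells, 77 and 57 for R1, and 15 and 18 for R2. It ranked at 46.4 and 48.4, at 4.63 and 7.68, and at 38.3 and 51.2, so that R1 stood apart and R2 spanned naïve. PPP2R5D, a regulatory subunit of protein phosphatase 2A, had shifts of -37.3 for R1 and 6.78 for R2, and FRS3, an adaptor of fibroblast growth factor receptors, had -30.3 and 10.8. PTK7, a receptor-like pseudokinase of Wnt signalling, was low throughout. It ranked at 11.4 and 16.4 for naïve cells, 5.12 and 9.20 for R1, and 26.7 and 8.37 for R2. TNFRSF21, death receptor 6, ranked at 72.0 and 24.5, at 31.6 and 17.8, and at 48.2 and 46.5, and its naïve libraries differed by more than R1 and naïve.

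Of 15 chaperone, transport and trafficking genes, 13 had a start peak in all lists. Both R1 libraries were below naïve for 12 and both R2 libraries for 5, with medians of -35.0 and -0.98. HSP90AB1 (ENSG00000096384.20), the constitutive cytosolic HSP90, ranked at 38.4 and 40.6 for naïve cells, 8.66 and 10.4 for R1, and 43.5 and 35.8 for R2. TBCC, a tubulin folding cofactor, ranked at 59.0 and 55.6, at 5.63 and 5.62, and at 82.4 and 73.7, and here R2 lay above naïve. GTPBP2 ranked at 80.5 and 75.0, at 18.3 and 26.4, and at 69.1 and 87.0. ABCC10, a drug efflux pump of the ABC family, had 36 and 24 tags for naïve cells, 72 and 52 for R1, and 13 in each R2 library. Its rank of 54.4 and 52.1 in naïve cells compares with 3.39 and 5.08 in R1 and 26.7 and 24.6 in R2, so both resistant lines lay below naïve. PEX6, a peroxisome assembly ATPase, and SLC29A1, the equilibrative nucleoside transporter, were likewise below naïve in both lines, with shifts of -46.9 and -38.7 at PEX6.

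Adhesion and membrane genes did not share one direction. Of 9 with a start in the segment, 3 had a start peak in all lists, and their shifts in R1 were 51.8 at LRFN2, 0.36 at ENPP4 and -28.1 at CYP39A1. LRFN2, a synaptic adhesion gene, has its start before 41 Mb. Its start peak had 11 and 8 tags for naïve cells, 173 and 108 for R1, and 11 and 13 for R2, and ranked at 0.13 and 0.12, at 54.6 and 49.2, and at 15.3 and 24.6. Both resistant lines lay above naïve, R1 further. The peaks near this start do not all overlap each other, so it is not among the 116 regions. ENPP5 had no start peak for naïve cells, 92 and 50 tags for R1, and 10 tags in the second R2 library only. Of 21 tissue-restricted genes, among them the TREM receptors of myeloid cells, the CRISP genes and rhodopsin-like OPN5, none had a start peak in all lists, 7 in some and 14 in none.
The 30 genes with a start peak in some lists had one in 19 and 13 cases for naïve cells, 25 and 21 for R1, and 4 and 6 for R2, the order of depth. In 6 of them the peak was in R1 alone and in 3 in naïve cells alone. Of these 3, TREML4 had a peak of 11 tags in the second naïve library only. GUCA1ANB and ENSG00000290147 have the same start, with a peak of 12 tags in the first naïve library only. The share of such genes over the genome was not taken.

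Presence was also counted over the whole segment. The member peaks joined into 1368 regions, of which 208 (15.2%) were found in all 3 lines, against 11.8% of the 373067 regions made in the same way over the genome. Those in naïve cells and R1 numbered 332 (24.3%, against 15.7%), those in R1 only 546 (39.9%, against 67.1%), and those in naïve cells only 238 (17.4%, against 2.63%). The other classes were small in number. There were 16 in naïve cells and R2 (1.17%, against 0.112%), a far larger share than in the genome. There were 13 in R1 and R2 (0.950%, against 1.99%), and 15 in R2 only (1.10%, against 0.665%). R1-only regions were thus a smaller share and naïve-only regions a larger share than in the genome. Depth differs between lists, and R1 had the deepest. Naïve regions without an R1 peak were also counted, and the part of depth in their number was not tested. Of the 353 regions with a peak in both naïve lists, 29 (8.22%) had no peak in either R1 list, against 1.01% of such regions in the genome. The count rested on which libraries were used. It was 83 of 499 (16.6%, against 2.47% in the genome) without the first naïve library, 206 of 798 (25.8%, against 5.39%) without the second, and 67 of 353 (19.0%, against 2.58%) without the first R1 library. With a shared fraction of 0.5 the order turned, with 60 of 172 (34.9%) in the segment against 58.2% in the genome. In R2, 170 had none (48.2%), against 39.5% in the genome. The 29 regions were low, with medians of 15 and 10 tags in the naïve libraries against 18 and 12 for the other 324. Of them, 26 lay between 41 and 45 Mb, 1 was within 1000 bp of a protein-coding start and 6 had a peak in R2. The 2 highest lay beyond 45 Mb, at chr6:48827374-48827620 with 41 and 18 tags in naïve cells, and at chr6:47168150-47168513 with 33 and 22, and both had a peak in R2.
The top 20000 peaks by p gave a further view at equal list length. For naïve cells the segment held 0.390% ± 0.0141 (SD, n = 2) of them. For R1 it held 0.175% ± 0.0141 (SD, n = 2), and for R2 0.315% ± 0.0141 (SD, n = 2). Among the top 10000 peaks the share for R1 was 0.05%, with 0.340% for naïve cells and 0.290% for R2. In numbers the top 20000 held 80 and 76 peaks, 33 and 37, and 61 and 65. The groups did not overlap, and R2 lay below naïve, nearer to it than to R1. Among the 116 compared regions, which all have an R2 peak, the R2 median ranks lay above naïve instead.

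Sequence near the summits was compared with that of all compared regions. Within 50 bp of the summit, on both strands, the GC box GGGCGG was found in 31.9% of the segment's regions and in 24.9% of all, and AGGGGGC, a part of the CTCF motif that can overlap the GC box, in 15.5% and 7.21%. The CCAAT box CCAAT was found in 14.7% and 11.1%, the AP-1 motif TGANTCA in 6.90% and 4.24%, and the ETS core CCGGAA in 6.90% and 5.36%. The RUNX core TGTGGT was found in 3.45% and 5.52%, the NRF1 part GCGCATG in 3.45% and 1.45%, the CRE core TGACGT in 2.59% and 2.46%, the E-box CACGTG in 1.72% and 3.05%, and GATAAG, the GATA motif, in 0.862% and 1.19%. The 8 regions with an AP-1 motif had a median R1 shift of -47.1, against -29.1 for the 108 without, and the 37 with a GC box -34.2 against -25.4. Other motifs went the other way, with -10.3 in the 4 regions with a RUNX core against -31.0 without it, -22.3 in the 4 with the NRF1 part against -30.4, and -25.6 in the 2 with an E-box against -30.1. The fall in R1 was therefore found in regions with and without each of these motifs, and the differences between them were not tested.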

How the data were processed

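ATAC-seq peaks of 6 SK-N-AS libraries were analysed. Per the paper and the submitters' processing notes, the authors aligned reads with BWA 0.7.12-r1039, marked duplicates with Picard 1.65, filtered with SAMtools 1.3.1 and dropped reads on mitochondrial DNA. Read ends were moved by +4 or -5 bp for the Tn5 cut, and MACS2 2.2.7.1 called peaks library by library at a q of 0.01. The paper names hg19 and the notes hg19 and hg38. All last peaks lay within hg38 chromosome lengths, and start peaks were found at hg38 gene starts, so hg38 and GENCODE release 44 were used. The deposited values are a fold, a ratio over background, and the −log10 of p and q. Each fold is a whole pileup plus 1 over a background rate plus 1, and the step between folds gave the rate. Overlap meant 1 shared base. Ranks were taken over regions with a peak in all lists. Regions at starts lay within 1000 bp of any annotated transcript start, and genes were taken by their canonical start. The named genes were fixed by role, with the 3 best of each list by mean rank added, and the named regions were the 3 lowest and the 3 highest in R1 shift and the 3 best in mean rank. The segment, the gene lists and the tests were chosen with earlier results of these data known. ENPP5, PEX6, SLC29A1 and other genes outside these rules were named after their values were seen. Overlap and rate recovery were tested on simulated data. Depth limits R2 most, where a compared region had a median of 12 or 13 tags. No test between lines was made. Python 3.11.15, NumPy 2.4.6, pandas 2.3.3 and BEDTools 2.31.1 were used.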

Additional observations from a re-analysis of the deposited data

Results flagged for a closer look

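The median rank shift of the 116 compared regions against naïve cells was -30.1 percentile points in R1 and 5.18 in R2. Both R1 libraries moved down (-27.7 and -29.5 against the naïve mean) and both R2 libraries up (7.9 and 3.73). The opposite directions drew attention to the pair. The segment was picked as shifted in R1 and not in R2. The R2 median was near the 4.56 between the naïve libraries, was 0.445 with the second naïve list as reference, and was -2.38 with a shared fraction of 0.5. Among the top 20000 peaks, which need no peak in the other lists, R2 held a smaller share than naïve cells, 0.315% against 0.390%. The difference between R1 and R2 was not tested.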

How the results depend on the processing

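In every alternative run, the R1 shift stayed negative, in the segment as a whole, at starts and away from them. When peaks had to share a fraction of 0.5, both ways, 24 of the 3629 regions left lay in the segment. The shift was then -12.6 in R1, -2.38 in R2, where its sign turned, and -13.8 between R1 and R2, with -12.8 at starts and -12.1 away. Of the 24, 14 lay below naïve in R1 and 4 in R2, and 14 lay below R2 in R1, with no share taken over the 3629. Of 172 naïve regions, 60 (34.9%) had no R1 peak, against 58.2% in the genome. The cause was not tested. With the second naïve list as reference the R2 shift was 0.445, R1 minus R2 -32.0, and the R1 shift away from starts -20.2. With a −log10 q of at least 5, R1 minus R2 was -32.6 and the R1 shift -29.8 at starts and -27.2 away. There, 15 of 214 naïve regions had no R1 peak, with no genome share taken. Adjusting for GC content gave -27.4 in R1 and -13.2 away from starts. On the log2 scale of pileup the shifts were -0.83 in R1, 0.16 in R2, -0.92 between them, -0.73 at starts and -0.97 away. In the 4 naïve and R1 lists, a choice made after seeing the data, the R1 shift was -25.9 and 221 of 280 regions lay below naïve (78.9%, against 31.7% of all 87192). With the top 10000 peaks the shares were 0.340% for naïve cells, 0.05% for R1 and 0.290% for R2, and with the top 50000 they were 0.330%, 0.159% and 0.306%. Leaving out each library in turn gave shifts from -30.3 to -27.1 in R1, 5.07 to 7.38 in R2, -36.7 to -34.9 between them, -35.0 to -31.7 at starts and -21.9 to -16.3 away. The sets then held 116 to 146 regions and 63 to 67 genes, and fewer libraries had to agree. The regions below naïve numbered from 100 of 117 to 121 of 146 in R1 and from 17 of 116 to 38 of 146 in R2. Those below R2 in R1 ran from 101 of 118 to 134 of 146. The genes below naïve were 58 to 60 in R1 and from 11 of 63 to 24 of 67 in R2. For these counts the share over the genome was not taken. The naïve regions with no R1 peak numbered 35 to 206. The last was 206 of 798 without the second naïve library, 83 of 499 without the first, and 67 of 353 without the first R1 library. The regions below naïve in R2 numbered 31 of 118 without the first naïve library and 34 of 123 without the second. They numbered 38 of 146 without the first R2 library and 34 of 142 without the second. The genes were 20 of 63, 24 of 67 and 23 of 65 without the first naïve, first R2 and second R2 library. The shares ran from 0.380% to 0.400% for naïve cells, 0.165% to 0.185% for R1 and 0.305% to 0.325% for R2. With a replicate block, also chosen after seeing the data, each library was set against the one of the same number. Both R1 libraries were then below naïve in 105 regions (39.0% of all regions), both R2 libraries in 22 (29.0%), and R1 below R2 in 105 (38.5%), and the same-numbered R1 minus naïve medians were -28.3 and -31.8. The labels do not say what the numbers stand for. Depth limits single ranks in R2, and no test between lines was run.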
